A study of Mus musculus with 14 samples.

Results

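Immunity related GTPases (IRGs) are interferon-induced proteins that mouse cells use against microbes living in membrane-bound vacuoles. The genes described are Iigp1, Irgm1, Irgm2, Igtp, Tgtp1 and Tgtp2. They were taken by name, from the symbol or reference transcript of each row, and the values of all transcripts of a gene were summed. All 6 were found among 23769 genes, and all 6 were among the 11557 genes that reached a mean of 1 FPKM in at least 1 culture medium and were tested. FPKM is the number of sequenced fragments per kilobase of transcript, scaled to the size of the library.

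As background, the family has a regulatory branch and an effector branch. Irgm1, Irgm2 and Igtp (also called Irgm3) are regulators that sit on the cell's own membranes and keep the effectors inactive there. Iigp1 (Irga6) and the near-identical Tgtp1 and Tgtp2 (Irgb6) are effectors that load onto the vacuoles of parasites such as Toxoplasma and break them open. Interferon-γ is their classical inducer, through its receptor and the transcription factor IRF1. Mouse CD4+ T cells also use the family: those without Irgm1 die when they meet interferon-γ. IL-27, a cytokine of the IL-12 family, signals through a receptor made of Il27ra and gp130 (Il6st) and activates STAT3 among other factors.

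RNA was sequenced from naive CD4+ T cells of C57BL/6 mice, sorted as CD62L high, CD44 low and CD25 negative, after 3 days in 1 of 7 media, with 2 libraries per medium and 14 in all. Every culture had plate-bound antibodies to CD3 and CD28 at 10 μg/ml each. The medium IL27_plus_TGF_beta added 20 ng/ml of IL-27 with 2 ng/ml of TGF-β, and antibodies that neutralise IFN-γ, IL-2 and IL-4. Th1 added IL-12 at 20 ng/ml and anti-IL-4. Th2 added IL-4 at 20 ng/ml and anti-IFN-γ. iTreg added 20 ng/ml of TGF-β with 50 U/ml of IL-2, and anti-IFN-γ. Th17_b added 2 ng/ml of TGF-β with 20 ng/ml of IL-6, and anti-IFN-γ and anti-IL-2. Th17_23 added IL-1β and IL-6 at 20 ng/ml each and IL-23 at 50 ng/ml, and it neutralised IFN-γ, IL-2 and TGF-β. Th0, the control, added no cytokine, and IL-2, IL-4 and IFN-γ were each neutralised by antibody. Anti-IFN-γ was thus named in every medium but Th1. The labels do not say whether the 2 libraries of a medium came from separate mice or cultures, so p-values measure only the spread between these libraries.

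The libraries held T cell transcripts: 7 T cell markers summed to between 1181.5 and 1789.6 FPKM in every library, while 5 B cell markers reached at most 1.93 FPKM, 5 dendritic cell markers 0.576 FPKM and 4 natural killer cell markers 1.0 FPKM. The 6 myeloid markers summed to 97.1 and 98.4 FPKM in IL27_plus_TGF_beta, against 63.6 and 67.5 FPKM in Th0, and to 137 to 151 FPKM in iTreg. The 2 CD8 T cell markers summed to 2.72 and 2.71 FPKM in IL27_plus_TGF_beta and to 4.45 to 7.22 FPKM in the 5 other media with cytokine, against 6.7 and 7.78 FPKM in Th0; nearly all of it was Cd8b1, which was called lower in IL27_plus_TGF_beta than in Th0 (-1.27 ± 0.11, adjusted p = 1.2e-05), iTreg, Th17_b and Th1. Nearly all of the myeloid sum was Ctss, a protease that is not confined to myeloid cells. The defining myeloid gene Lyz2 was listed at 0 in every library, Csf1r was at most 0.103 FPKM (Th17_b) and Cd14 at most 0.171 FPKM (Th17_23). Itgam was at 2.55 and 0.899 FPKM in iTreg and 0.0659 and 0.0833 FPKM in IL27_plus_TGF_beta, against 0.53 and 0.523 FPKM in Th0. Adgre1 was at 1.55 and 2.48 FPKM in Th2 and was listed at 0 in both Th0 libraries. Sequencing depth is not given; low values that fall on whole-read steps placed replicate 2 libraries at 0.753 to 0.832 of the depth of Th0 replicate 1, and replicate 1 libraries at 0.935 to 1.06. Between 10336 and 10697 genes reached 1 FPKM per library. In bulk RNA, fewer cells that express a gene and less RNA per cell cannot be told apart.

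Irgm1, Irgm2, Igtp, Tgtp1 and Tgtp2 lie on mouse chromosome 11 in the reference annotation. Their promoters are shown because interferon acts on this family through short motifs next to the gene start. The reference promoter table (RefSeq, build GRCm38.p6) held 5 of the 6 genes, from 250 bases before to 50 bases after the start. Each of the 5 held a match to the interferon stimulated response element, searched on both strands as GAAANNGAAA. The 70 bases around it are printed 5′ to 3′ on the strand of the gene, with the matches in capitals. The Irgm1 window is chr11:48871426-48871495 on the minus strand, and its capitals are a pair of overlapping matches, from 30 to 15 bases before the start. The Irgm2 window is chr11:58214868-58214937 on the plus strand, with the match 64 to 55 bases before the start. Igtp is at chr11:58199477-58199546 on the plus strand, with the match 34 to 25 bases before the start. Tgtp1 is at chr11:48992299-48992368 on the minus strand (match 77 to 68 bases before the start) and Tgtp2 at chr11:49064258-49064327 on the minus strand (match 70 to 61 bases before the start).
Irgm1: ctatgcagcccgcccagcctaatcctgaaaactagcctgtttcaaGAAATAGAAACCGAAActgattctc
Irgm2: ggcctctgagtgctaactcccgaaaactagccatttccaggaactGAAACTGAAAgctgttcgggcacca
Igtp: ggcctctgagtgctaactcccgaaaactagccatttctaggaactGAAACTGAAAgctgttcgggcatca
Tgtp1: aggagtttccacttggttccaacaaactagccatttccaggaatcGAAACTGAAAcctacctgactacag
Tgtp2: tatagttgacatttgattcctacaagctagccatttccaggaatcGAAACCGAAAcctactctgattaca

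The same motif was present in 1131 of 32851 promoters of that table, or 3.44%. It was found in 5 of 5 guanylate binding protein genes with an entry and in 3 of 7 other IRG genes. The gamma activated site, searched as TTCNNNGAA, which reads the same on both strands, was in the windows of Irgm2, Igtp, Tgtp1 and Tgtp2 but not in that of Irgm1, and in 8.3% of all promoters. In each of those 4 genes it did not overlap the response element but ended 2 bases before it, in the lower case letters just left of the capitals. The Igtp and Irgm2 promoters were identical at 73.5% of aligned positions and those of Tgtp1 and Tgtp2 at 67.7%. A match is a string of letters in the reference and says nothing of whether a factor was bound in these cells.

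Sequence also limits how far the members can be told apart. The reference transcripts of Tgtp1 and Tgtp2 were identical at 99.3% of 2823 aligned positions. Of the 50-base stretches in Tgtp1, 91.4% occurred in another gene as well, and 89.4% occurred in Tgtp2. The share was 12.3% for Igtp, all of it with Irgm2, and 6.86% for Irgm2. It was 3.47% for Iigp1 and 0.814% for Irgm1. No source used here says how the authors divided reads between copies, so values of Tgtp1 and Tgtp2 taken singly are uncertain, and their sum is given beside them. That sum was chosen after the values were seen.

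All members were at their highest mean level in IL27_plus_TGF_beta, and all but Tgtp2 were next highest in Th1. The 6 genes summed to 1163.6 and 1147.1 FPKM in IL27_plus_TGF_beta, 238 and 231 FPKM in Th1, 46.9 and 48.7 FPKM in Th2, 63.6 and 81.6 FPKM in iTreg, 42.5 and 42.3 FPKM in Th17_b, and 52.2 and 61.2 FPKM in Th17_23, against 58.5 and 83.5 FPKM in Th0. Igtp was the most abundant in every medium except Th17_b: it made up 37.8% of the summed FPKM in IL27_plus_TGF_beta and 64.8% in Th1, against 68.5% in Th0. Iigp1 made up 24.9% in IL27_plus_TGF_beta, against 1.33% in Th0. In Th17_b, Irgm1 took the first place with 37.1%, against 31.7% for Igtp. Media were compared with limma on log2(FPKM + 1), with p-values adjusted over all 11557 genes and a gene called under 0.05. Fold changes on that scale understate changes of genes near or under 1 FPKM, such as Iigp1 in most media.

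**Figure D1:**
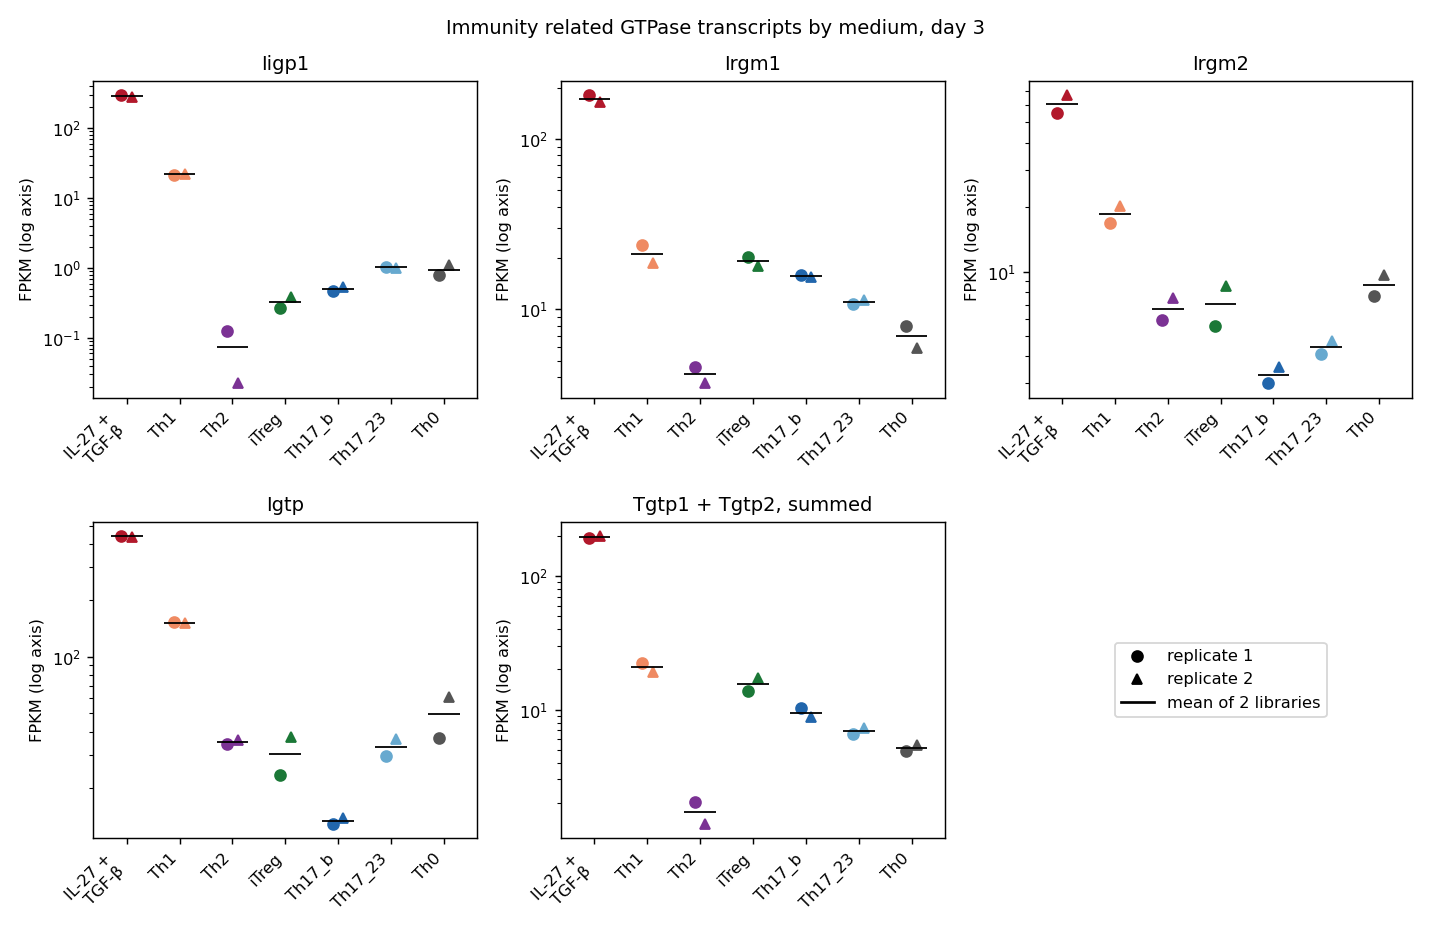
FPKM of Iigp1, Irgm1, Irgm2, Igtp and the summed Tgtp1 and Tgtp2 in each medium, on log axes whose ranges differ between panels. Circles are replicate 1, triangles are replicate 2 and lines are means of 2 libraries; IL-27 + TGF-β stands for IL27_plus_TGF_beta. Both libraries of that medium lie above all others in every panel, and Th1 has the next highest mean, though its libraries overlap those of iTreg for Irgm1; for Igtp those of IL27_plus_TGF_beta are 439 and 436 FPKM, against 37.1 and 61.4 FPKM in Th0.

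Irgm1, a regulator that also bears on mitochondria and autophagy, was at 180 and 164 FPKM in IL27_plus_TGF_beta, 23.9 and 18.6 FPKM in Th1, 20.4 and 18 FPKM in iTreg, 15.9 and 15.5 FPKM in Th17_b, 10.8 and 11.4 FPKM in Th17_23 and 4.62 and 3.69 FPKM in Th2, against 7.96 and 5.95 FPKM in Th0. Th2 was thus the lowest medium and every other lay above Th0, with no overlap between the libraries of any of them and those of Th0. In the order of means, only the neighbours Th1 and iTreg were not separated (log2 change 0.13 ± 0.10 SE, adjusted p = 0.30).

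Irgm2, the regulator that sits largely at the Golgi, was at 55.5 and 66.8 FPKM in IL27_plus_TGF_beta, 16.9 and 20.3 FPKM in Th1, 5.91 and 7.48 FPKM in Th2, 5.54 and 8.53 FPKM in iTreg, 4.09 and 4.73 FPKM in Th17_23 and 3.00 and 3.56 FPKM in Th17_b, against 7.65 and 9.63 FPKM in Th0. Only the first 2 media lay above Th0, and the libraries of iTreg overlapped those of Th0. The neighbours iTreg and Th2 were not separated (0.04 ± 0.09, adjusted p = 0.68).

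Igtp, the regulator found at the endoplasmic reticulum, was at 439 and 436 FPKM in IL27_plus_TGF_beta, 153 and 151 FPKM in Th1, 34.2 and 36.1 FPKM in Th2, 29.7 and 36.7 FPKM in Th17_23, 23.5 and 37.3 FPKM in iTreg and 12.9 and 13.9 FPKM in Th17_b, against 37.1 and 61.4 FPKM in Th0. The Th0 libraries differed from each other more than those of most media did. Th0, Th2, Th17_23 and iTreg formed a run whose neighbours were not separated (adjusted p = 0.14, 0.71 and 0.47), while Th17_b lay below iTreg (1.09 ± 0.18 lower in Th17_b, adjusted p = 0.00072).

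Iigp1, the best studied effector and the member on chromosome 18, had the widest range. Its level was 295 and 280 FPKM in IL27_plus_TGF_beta, 21.6 and 22.1 FPKM in Th1, 1.02 and 1.01 FPKM in Th17_23, 0.475 and 0.542 FPKM in Th17_b, 0.269 and 0.383 FPKM in iTreg and 0.124 and 0.0225 FPKM in Th2, against 0.785 and 1.10 FPKM in Th0. Both IL27_plus_TGF_beta libraries and both Th1 libraries stood far above the rest, which lay near or under 1 FPKM, and the libraries of Th17_23 fell within the range of Th0. The gene has 2 listed transcripts, and the less abundant added 13.7 and 11.4 FPKM of the total in IL27_plus_TGF_beta. The neighbours Th17_23 and Th0 were not separated (0.06 ± 0.09, adjusted p = 0.62), nor were Th17_b and iTreg (0.19 ± 0.09, adjusted p = 0.10).

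The Tgtp pair, effectors first found in T cells, summed to 194 and 200 FPKM in IL27_plus_TGF_beta, 22.5 and 19.0 FPKM in Th1, 13.9 and 17.3 FPKM in iTreg, 10.2 and 8.76 FPKM in Th17_b, 6.53 and 7.30 FPKM in Th17_23 and 2.03 and 1.39 FPKM in Th2, against 4.93 and 5.44 FPKM in Th0. The order was that of Irgm1, and only Th17_23 and Th0 were not separated (0.36 ± 0.14, adjusted p = 0.064). Split by gene, the picture differed. In Th2, Tgtp2 held 99.9% of the sum in replicate 1 and 0.14% in replicate 2. It held 44.2% and 0.0163% in iTreg, 0.0135% and 54.7% in Th17_b, and 55.3% and 0.0342% in Th17_23. Only in IL27_plus_TGF_beta (2.07% and 4.57%) and Th0 (0.0279% and 0.0317%) was the share low in both libraries. In IL27_plus_TGF_beta it still differed between them, with Tgtp2 at 4.03 and 9.14 FPKM. The SE of a change was 1.25 for Tgtp2 and 0.53 for Tgtp1, against 0.14 for their sum.

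**Figure D2:**
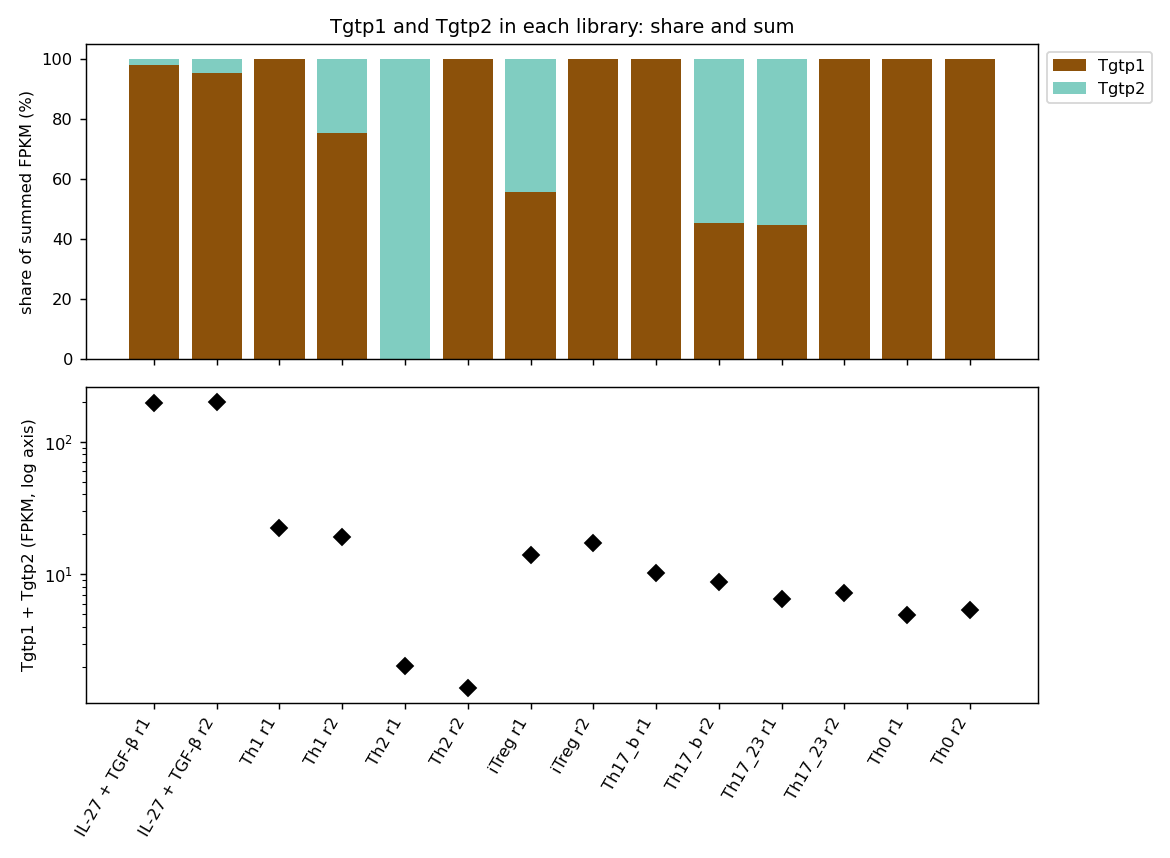
Upper panel: share of the summed Tgtp1 and Tgtp2 FPKM given to each gene, in percent, for each of 14 libraries (r1 and r2 are replicates 1 and 2). Lower panel: the sum in FPKM on a log axis. The share changes between libraries of 1 medium, as in Th2 (99.9% and 0.14% for Tgtp2), while the sums stay near each other (2.03 and 1.39 FPKM).

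In IL27_plus_TGF_beta, a medium with anti-IFN-γ, both branches of the family were higher than in Th0. Iigp1 rose by 7.22 ± 0.09 on the log2 scale (SE, adjusted p = 1.7e-10), a 305-fold ratio of mean FPKM. Among the regulators, Irgm1 rose by 4.45 ± 0.10 (4.6e-09; 24.7-fold), Igtp by 3.17 ± 0.18 (9.4e-07; 8.87-fold) and Irgm2 by 2.69 ± 0.09 (3.3e-08; 7.08-fold). Tgtp1 rose by 4.95 ± 0.53 (adjusted p = 5.3e-05) and the summed pair by 5.00 ± 0.14 (adjusted p = 1.4e-08). Tgtp2 alone was at 4.03 and 9.14 FPKM in IL27_plus_TGF_beta, against 0.00137 and 0.00173 FPKM in Th0, and was not called (2.83 ± 1.25, adjusted p = 0.086). Of the 6 genes, 5 were called higher, where 22% of all tested genes were called higher and 28.8% lower. The median change was 3.81 over the members and -0.04 over all tested genes. By size of change, Iigp1 ranked 2 and Irgm2, the lowest of the members, 103 from the top of 11557 genes.

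In Th1, members were also higher than in Th0. The 2 media differ both in IL-12 and in the antibodies to IFN-γ and IL-2, and the parts of these cannot be told apart. Iigp1 rose by 3.56 ± 0.09 against Th0 (adjusted p = 8.8e-08), Igtp by 1.65 ± 0.18 (adjusted p = 0.00053), Irgm1 by 1.48 ± 0.10 (adjusted p = 5e-05) and Irgm2 by 1.03 ± 0.09 (adjusted p = 0.00011). The summed Tgtp pair rose by 1.81 ± 0.14 (adjusted p = 7.1e-05), while Tgtp1 (1.62 ± 0.53, adjusted p = 0.074) and Tgtp2 (1.26 ± 1.25, adjusted p = 0.55) were not called singly. The 4 of 6 genes called higher stand beside 6.36% of all tested genes called higher and 7.55% called lower, and the median change was 1.55 over the members and -0.05 over all genes. With Th1 and Th0 fitted alone, the call of Igtp was lost (adjusted p = 0.069).

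Levels in IL27_plus_TGF_beta also exceeded those in Th1 for 5 of the 6 genes, where 26% of tested genes were called higher and 26.3% lower. Iigp1 was higher by 3.66 ± 0.09 (adjusted p = 1.5e-08), Irgm1 by 2.97 ± 0.10 (adjusted p = 7.3e-08), Irgm2 by 1.66 ± 0.09 (adjusted p = 7.6e-07) and Igtp by 1.52 ± 0.18 (adjusted p = 0.00011). The ratio of mean FPKM was 8.11 for Irgm1 and 9.48 for the summed Tgtp pair, but 2.88 for Igtp and 3.28 for Irgm2. Tgtp2 was not called (1.58 ± 1.25, adjusted p = 0.32).

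The comparisons with Th17_b and iTreg, which also hold TGF-β, set IL-27 with TGF-β beside TGF-β with IL-6 and beside TGF-β with IL-2. They do not isolate IL-27, since the antibodies and, in iTreg, the TGF-β dose (2 ng/ml in IL27_plus_TGF_beta, against 20 ng/ml in iTreg) differ too. Against Th17_b, 5 of 6 genes were higher in IL27_plus_TGF_beta, where 16.7% of tested genes were called higher and 21.9% lower; scaled to a common median, 2733 genes were higher and 2157 lower, in place of 1930 and 2534. Igtp was 4.93 ± 0.18 higher than in Th17_b, its largest difference among the 4 comparisons of IL27_plus_TGF_beta, and Irgm2 was 3.86 ± 0.09 higher (adjusted p = 6.5e-08 and 3.5e-09). Iigp1 was 7.58 ± 0.09 and Irgm1 3.37 ± 0.10 higher (adjusted p = 1.1e-10 and 2.5e-08). Against iTreg, 5 of 6 were higher as well, where 38.4% of tested genes were called higher and 27.9% lower. The differences were 7.77 ± 0.09 for Iigp1, 3.84 ± 0.18 for Igtp, 3.58 ± 0.14 for the Tgtp sum, 3.10 ± 0.10 for Irgm1 and 2.97 ± 0.09 for Irgm2, all with adjusted p of 2.1e-07 or less. Tgtp2 was not called in either (adjusted p = 0.36 and 0.34).

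**Figure D3:**
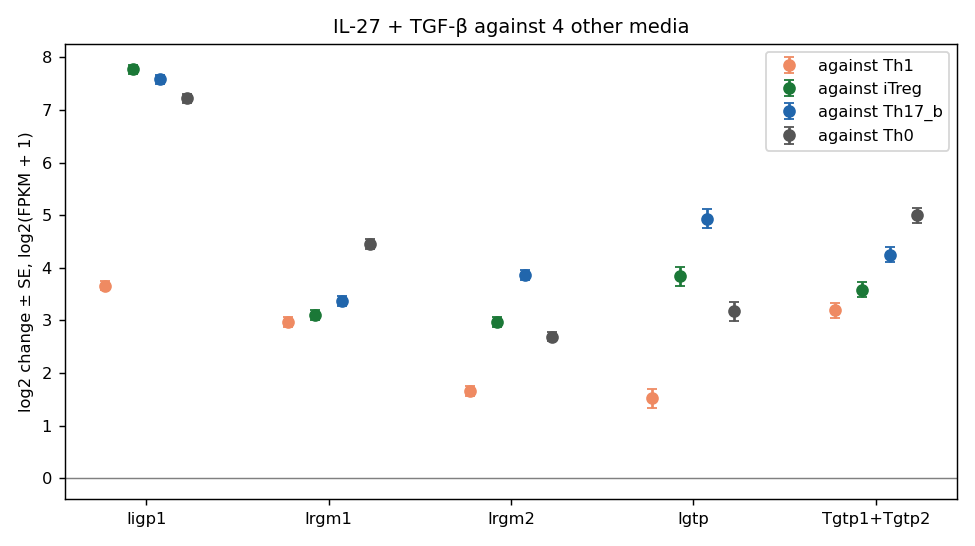
Log2 change of IL27_plus_TGF_beta (drawn as IL-27 + TGF-β) over Th1, iTreg, Th17_b and Th0, on the log2(FPKM + 1) scale; points are estimates and bars 1 SE from the fit over 14 libraries. All 20 points lie above 0, from 1.52 for Igtp against Th1 to 7.77 for Iigp1 against iTreg.

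In the TGF-β media without IL-27, single members moved in opposite directions from Th0, in counts not far from the shares over all genes given below. Irgm1 was higher in iTreg (1.35 ± 0.10, adjusted p = 8.6e-06) and in Th17_b (1.08 ± 0.10, adjusted p = 2.6e-05), which is 2.76-fold and 2.26-fold by mean FPKM. The summed Tgtp pair was higher as well, by 1.42 ± 0.14 in iTreg (adjusted p = 3.8e-05) and 0.76 ± 0.14 in Th17_b (adjusted p = 0.0016). Igtp was lower in Th17_b by 1.76 ± 0.18 (adjusted p = 3.7e-05), and Irgm2 by 1.17 ± 0.09 (adjusted p = 5.1e-06). Iigp1 was lower in both, with changes of -0.55 ± 0.09 in iTreg (adjusted p = 0.0006) and -0.36 ± 0.09 in Th17_b (adjusted p = 0.0077); the call in Th17_b was lost without Th0 replicate 2 (-0.24, adjusted p = 0.081). Irgm1 over Igtp stood at a ratio of 1.23 and 1.11 in the Th17_b libraries and 0.866 and 0.483 in iTreg, against 0.214 and 0.0969 in Th0. The ratio was also above Th0 in IL27_plus_TGF_beta (0.411 and 0.377) and in Th17_23 (0.364 and 0.311). It lay within the range of Th0 in Th1 (0.156 and 0.123) and Th2 (0.135 and 0.102).

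In iTreg, Igtp was also lower (-0.67 ± 0.18, adjusted p = 0.0093), as was Irgm2 (-0.28 ± 0.09, adjusted p = 0.018), but the libraries of both overlapped those of Th0. The fall of Igtp was not called without iTreg replicate 1 (-0.44, adjusted p = 0.097) or without Th0 replicate 2 (-0.41, adjusted p = 0.10). That of Irgm2 held under 6 of 13 alternatives: it was not called without iTreg replicate 1 (-0.13, adjusted p = 0.17), without either Th0 library (adjusted p = 0.069 and 0.079), when scaled to a common median (-0.16, adjusted p = 0.10) or by quantiles (-0.18, adjusted p = 0.079), with the 2 media fitted alone (adjusted p = 0.095) or with no replicate block (adjusted p = 0.23). Of the 6 genes, 1 was called higher and 3 lower in iTreg, where 22.7% of all tested genes were called higher and 40.7% lower, so these counts are near those shares. Scaling to a common median moved the median change of all genes in iTreg from -0.13 to -0.02, and gave 3423 higher and 3929 lower calls in place of 2626 and 4709. With that scaling Irgm1 was higher by 1.48 and the Tgtp sum by 1.54, and Igtp changed by -0.54 and Iigp1 by -0.51, each still called. In Th17_b the counts were again 1 higher and 3 lower, where 25.4% were called higher and 29.1% lower. For 6 genes, these counts are not far from those shares either. Tgtp1 (1.04 ± 0.53 in iTreg and 0.27 ± 0.53 in Th17_b) and Tgtp2 were not called singly in either medium.

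In Th17_23, a medium that neutralises TGF-β, 3 members were called. Irgm1 was higher than in Th0 (0.62 ± 0.10, adjusted p = 0.0012), while Irgm2 (-0.83 ± 0.09, adjusted p = 7.8e-05) and Igtp (-0.52 ± 0.18, adjusted p = 0.038) were lower. Iigp1 was at 0.06 ± 0.09 and not called, with -0.03 under quantile normalization. With 1 gene of 6 called higher and 2 lower, the counts stand beside 26.4% of tested genes called higher and 22.9% lower, and are near those shares. The call of Igtp was lost without either Th17_23 library or without Th0 replicate 2 (adjusted p = 0.15, 0.12 and 0.32).

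Between Th17_b and Th17_23 directly, which differ in TGF-β, IL-1β, IL-23 and the antibodies, Igtp was lower in Th17_b by 1.24 ± 0.18 (adjusted p = 0.00042), Iigp1 by 0.42 ± 0.09 (adjusted p = 0.0036) and Irgm2 by 0.34 ± 0.09 (adjusted p = 0.0087). Irgm1 was higher in Th17_b by 0.46 ± 0.10 (adjusted p = 0.0046), as was the Tgtp sum by 0.40 ± 0.14 (adjusted p = 0.037). Called higher were 1 of 6 members and 23.4% of tested genes, and called lower were 3 of 6 members and 32.2% of tested genes. Neither count is far from its share. Without Th17_23 replicate 1, the calls of Irgm1 (0.32, adjusted p = 0.05) and Irgm2 (-0.27, adjusted p = 0.076) were lost, and that of Irgm2 also without Th17_b replicate 2 (-0.28, adjusted p = 0.072) and with no replicate block (adjusted p = 0.16). The call of the Tgtp sum was lost without any 1 of the 4 libraries (0.30 to 0.50) and held under 7 of 13 alternatives.

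In Th2, with IL-4 and anti-IFN-γ, 4 members were called lower than in Th0. Among them was Tgtp1, at 0.00263 and 1.39 FPKM in Th2, where its share of the pair changed between libraries, as given above. The Tgtp sum fell to 1.71 FPKM on average in Th2, against 5.19 FPKM in Th0 (-1.20 ± 0.14, adjusted p = 0.00044). Iigp1 changed by -0.85 ± 0.09 (adjusted p = 0.00021) and Irgm1 by -0.62 ± 0.10 (adjusted p = 0.0035). Tgtp1 (replicate changes of -2.56 and -1.43, SE 0.53, adjusted p = 0.029) and Irgm2 (-0.33 ± 0.09, adjusted p = 0.031) were called as well, but the call of Tgtp1 was lost without Th2 replicate 1, Th0 replicate 1 or Th0 replicate 2 (adjusted p = 0.16, 0.14 and 0.12). The call of Irgm2 was lost without any 1 of the 4 libraries (adjusted p = 0.10 to 0.14). Igtp was not called (-0.43 ± 0.18, adjusted p = 0.14), nor was Tgtp2, at 2.03 and 0.00194 FPKM in Th2, against 0.00137 and 0.00173 FPKM in Th0 (0.80 ± 1.25, adjusted p = 0.71). Those 4 of 6 genes called lower stand beside 12.4% of tested genes called lower and 5.68% called higher. Scaled to a common median, 1038 were lower and 943 higher, in place of 1428 and 657. With that scaling Irgm2 was not called (-0.26, adjusted p = 0.061), and its call held under 4 of 13 alternatives.

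**Figure D4:**
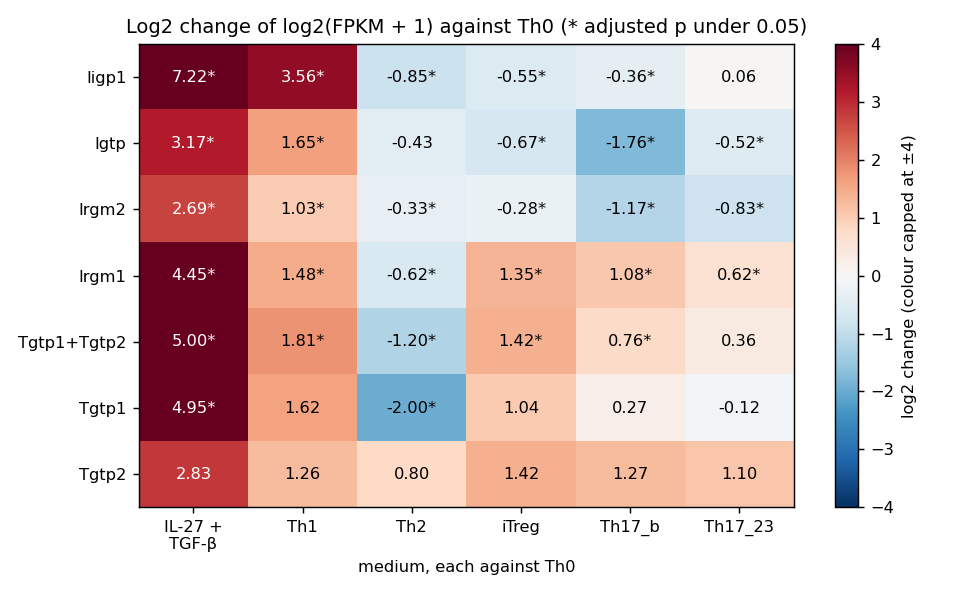
Log2 change of each member, and of the summed Tgtp pair, in 6 media against Th0, on the log2(FPKM + 1) scale; colour is capped at ±4 and an asterisk marks adjusted p under 0.05. Irgm1 and the Tgtp sum are positive in iTreg and Th17_b (1.35 and 1.42, 1.08 and 0.76), where Iigp1, Igtp and Irgm2 are negative.

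All comparisons with Th0 share its 2 libraries, so the changes are not independent of each other. Over the 14 libraries, and after the mean of each table was taken off, log2(FPKM + 1) of Irgm2 and Igtp correlated most closely (r = 0.978). Irgm1 and Tgtp1 followed (r = 0.957). Igtp and Irgm2 share some sequence, as given above. Irgm1 and Igtp stood at r = 0.738, and Tgtp2 stood between 0.332 and 0.551 with the others. These are descriptions over 14 libraries in which each medium counts 2 times and which share 2 tables, and IL27_plus_TGF_beta dominates them.

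The tested genes whose levels followed the mean of the members most closely were the serpins Serpina3f and Serpina3g (r = 0.980 each over 14 libraries, after the mean of each table was taken off), the guanylate binding protein gene Gbp10 (0.968) and the predicted IRG genes Gm4951 (0.967) and Gm4841 (0.963). Tmem35a, Arl5a, Klrk1, Gm7030 and Trim21 followed, between 0.958 and 0.955. Of these genes, Gm4951, Gm4841 and Klrk1 reached a mean of 1 FPKM in IL27_plus_TGF_beta alone, so the filter admitted them through that medium. Serpina3f averaged 14.8 FPKM in IL27_plus_TGF_beta and 1.76 FPKM in Th1, against 0.0357 FPKM in Th0, and Gm4951 averaged 10.1 and 0.789 FPKM, against 0.0275 FPKM in Th0. Trim21, the gene of a cytosolic antibody receptor and ubiquitin ligase, averaged 21.7 and 11.0 FPKM in those media, against 6.77 FPKM in Th0.

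A list of 11 other IRG genes was examined beside the members, and 10 were tested. In IL27_plus_TGF_beta against Th0, 6 of 10 were called higher and 1 lower, beside 22% and 28.8% of all tested genes, with a median change of 2.25. Among those called higher, Gm4951, Gm4841 and F830016B08Rik reached a mean of 1 FPKM in IL27_plus_TGF_beta alone. The filter thus admitted them because they were high there, and the count and the median partly reflect that. Ifi47 (Irgd) was at 300 and 281 FPKM in IL27_plus_TGF_beta, against 38.6 and 44.2 FPKM in Th0 (2.78 ± 0.11, adjusted p = 1.2e-07). Gm12250 (Irgb10), which attacks bacterial membranes, was at 37.2 and 38.4 FPKM, against 3.29 and 6.21 FPKM in Th0 (2.80 ± 0.18, adjusted p = 2.3e-06). Gm4951 rose by 3.42 ± 0.12, Gm4841 by 3.06 ± 0.11 and Gm12185 by 2.39 ± 0.08. The tandem gene 9930111J21Rik1 fell by 0.48 on the log2 scale (adjusted p = 0.0034), and Irgq, a divergent member, was at 3.41 FPKM in IL27_plus_TGF_beta and 3.31 FPKM in Th0 and was not called. In Th1, 3 of 10 rose, beside 6.36% of all tested genes: Gm12250 (1.84 ± 0.18), Gm4951 (0.79 ± 0.12) and Gm4841 (0.63 ± 0.11).

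Members of this list also differed in direction in the TGF-β media. In Th17_b, Ifi47 was at 88.4 and 76.5 FPKM, against 38.6 and 44.2 FPKM in Th0 (0.98 ± 0.11, adjusted p = 8.6e-05), while Gm12250 was at 0.454 FPKM in both Th17_b libraries, against 3.29 and 6.21 FPKM in Th0 (-1.93 ± 0.18, adjusted p = 2.4e-05). In iTreg, Ifi47 (0.93 ± 0.11, adjusted p = 0.00011) and 9930111J21Rik1 (51.7 FPKM, against 9.56 FPKM in Th0, 2.32 ± 0.10) were higher and Gm12250 was lower (-1.21 ± 0.18, adjusted p = 0.00039). Called higher were 6 of 10 in iTreg and 3 of 10 in Th17_b, beside 22.7% and 25.4% of all tested genes, so the count in Th17_b is near the share over all genes. Gm12250 was the 1 gene called lower in each. Ifi47 and Gm12250 were singled out here after their values were seen.

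The guanylate binding proteins (Gbps), larger interferon-induced GTPases that work with the IRGs at vacuoles, were called higher in 10 of 10 tested genes in IL27_plus_TGF_beta and in 8 of 10 in Th1, against Th0, beside 22% and 6.36% of all tested genes. Gbp2 averaged 744 ± 22.9 FPKM in IL27_plus_TGF_beta, against 66.5 ± 5.45 FPKM in Th0 (SD, n = 2 each), and Gbp6 rose by 4.89 ± 0.09 and Gbp10 by 4.83 ± 0.09. In iTreg all 10 tested Gbps were called lower, beside 40.7% of all tested genes, with a median change of -2.51, and Gbp5 averaged 2.27 FPKM, against 36.1 FPKM in Th0. In Th17_b, 7 of 10 were lower, beside 29.1% of all tested genes, with a median of -1.34, and Gbp2 was not called (83.9 FPKM, against 66.5 FPKM in Th0, adjusted p = 0.051). In Th2, 6 of 10 were lower, beside 12.4% of all tested genes, with a median of -0.55. Gbps also share sequence with each other, and how their reads were divided is not known.

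The genes upstream of the family were examined for what each medium showed of the interferon pathway. Ifng itself was at 1.60 and 1.32 FPKM in IL27_plus_TGF_beta and 50.6 and 21.6 FPKM in Th1, against 0.0713 and 0 FPKM in Th0. Both chains of the interferon-γ receptor were lower in IL27_plus_TGF_beta: Ifngr1 was at 3.33 and 3.50 FPKM, against 26.2 and 27.8 FPKM in Th0 (-2.66 ± 0.09, adjusted p = 3.3e-08), and Ifngr2 at 0.224 and 0.339 FPKM, against 11.6 and 13.7 FPKM in Th0 (-3.41 ± 0.08, adjusted p = 4.6e-09). Ifngr2 was also lower in Th1 (-1.16 ± 0.08, adjusted p = 4.1e-05) and Th17_23 (-0.82 ± 0.08, adjusted p = 4.8e-05). It was higher in Th2 (0.84 ± 0.08) and iTreg (1.03 ± 0.08) and not called in Th17_b. Ifngr1 was also lower in Th2 (-0.78 ± 0.09), Th17_b (-0.42 ± 0.09) and Th17_23 (-0.81 ± 0.09), and was not called in Th1 or iTreg.

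Downstream of the receptors, Irf1, whose protein binds the response element shown in the promoters, was at 228 and 250 FPKM in IL27_plus_TGF_beta and 79.7 and 73.4 FPKM in Th1, against 17.6 and 14.9 FPKM in Th0. It rose by 3.80 ± 0.10 in IL27_plus_TGF_beta (adjusted p = 1.1e-08) and by 2.17 ± 0.10 in Th1 (adjusted p = 4.2e-06), its highest and next highest media. In Th17_b, Irf1 was at 20.7 and 23.6 FPKM, slightly above Th0 (0.42 ± 0.10, adjusted p = 0.0073), while in iTreg it fell by 0.42 on the log2 scale (adjusted p = 0.0063). Of 16 receptor and signalling genes, 9 were called higher and 4 lower in IL27_plus_TGF_beta, and 7 higher and 1 lower in Th1. All tested genes were called at 22% higher and 28.8% lower in IL27_plus_TGF_beta, so the lower count is near that share, and at 6.36% and 7.55% in Th1.

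**Figure D5:**
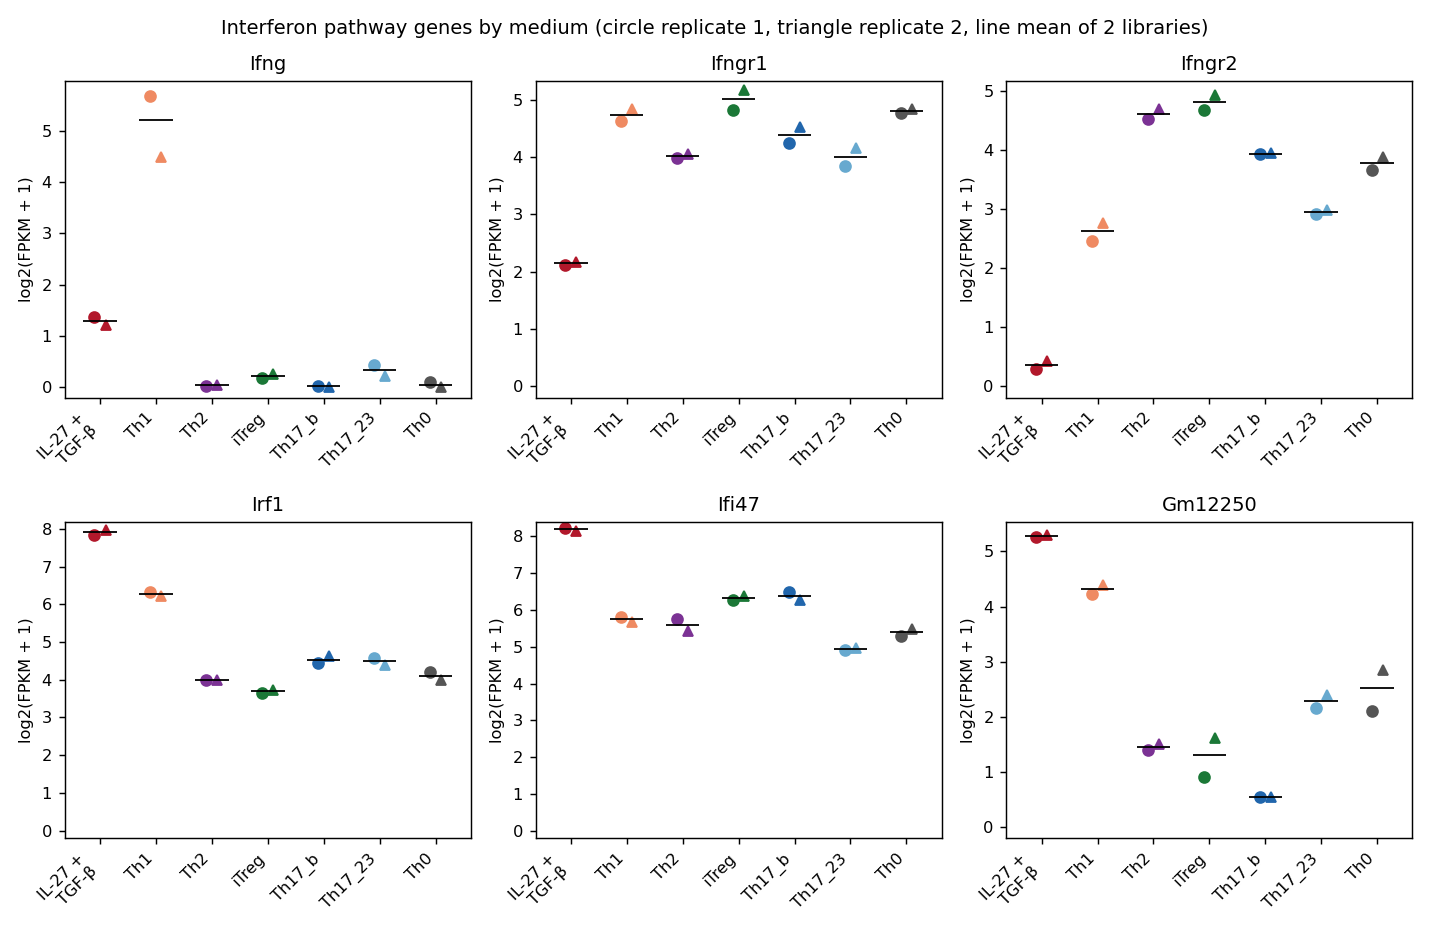
Log2(FPKM + 1) of Ifng, the receptor chains Ifngr1 and Ifngr2, the transcription factor Irf1, and the IRG genes Ifi47 and Gm12250 in each medium (circle replicate 1, triangle replicate 2, line mean of 2 libraries; IL-27 + TGF-β stands for IL27_plus_TGF_beta). Ifng is highest in Th1, whereas Irf1, Ifi47 and Gm12250 are highest, and Ifngr1 and Ifngr2 lowest, in IL27_plus_TGF_beta.

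The IL-27 receptor chain Il27ra averaged 36.0 FPKM in IL27_plus_TGF_beta, against 38.5 FPKM in Th0, and was not called (-0.09 ± 0.07, adjusted p = 0.30). Stat3, a factor that IL-27 activates, rose by 2.07 ± 0.09 (adjusted p = 1.7e-07). It rose in Th17_b as well (1.48 ± 0.09, adjusted p = 1.4e-06), where Irgm1 and the Tgtp sum rose and Igtp, Irgm2 and Iigp1 fell. The part of Stat3 in the levels of the members was not tested. Of 8 genes of this receptor arm, 6 were called higher in IL27_plus_TGF_beta, beside 22% of all tested genes; in Th1, 5 were called higher and 1 lower, beside 6.36% and 7.55%.

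Of 14 tested genes among other known interferon-γ targets, 9 were called higher and 2 lower in IL27_plus_TGF_beta, beside 22% and 28.8% of all tested genes. Tap1, which carries peptides to MHC class I, averaged 192 FPKM in IL27_plus_TGF_beta and 123 FPKM in Th1, against 56.7 FPKM in Th0. The chemokine gene Cxcl10 averaged 13.9 FPKM in IL27_plus_TGF_beta and was listed at 0 in both Th0 libraries. It reached a mean of 1 FPKM in no other medium, so the filter admitted it through IL27_plus_TGF_beta. In Th1, 5 of the 14 were higher and 1 lower, beside 6.36% and 7.55%. Autophagy conjugation is needed to load IRG effectors onto vacuoles. Among genes listed for it and for IRG loading, 4 of 16 were called higher and 1 lower in IL27_plus_TGF_beta, with a median of -0.03. Of all tested genes 22% were called higher and 28.8% lower there, so the higher count is near that share. Trim21 aside, the changes named by the rule were Tax1bp1 (0.42 ± 0.07) and Atg16l1 (0.26 ± 0.07). In Th1, 1 of the 16 was higher and 1 lower, beside 6.36% and 7.55% of all tested genes, so both counts are near those shares.

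Thy1, a T cell marker, was at 24.1 and 32.9 FPKM in IL27_plus_TGF_beta, against 238 and 264 FPKM in Th0, while Cd3e was at 515 and 445 FPKM, against 235 and 184 FPKM in Th0. The part of such shifts, and of the Ctss and Cd8b1 shifts given above, in the IRG levels was not tested. For a single gene, an exact permutation test of 2 libraries against 2 cannot go under p = 0.333, so all calls rest on the spread shared over genes and media.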

How the data were processed

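Libraries were prepared from total RNA with a TruSeq kit, per the labels' protocols. TopHat2 2.0.3, Cufflinks 1.3.0 and mouse build mm9 are named, with no role given, per the submitters' processing notes. The authors deposited FPKM values in 2 tables, replicate 1 of every medium in 1 and replicate 2 in the other; whether they were scaled together, and strand, are not given in the sources used here. Of the 30028 transcripts per table, 96.7% were matched to a gene by accession and 241 by symbol through a reference of another build, used for names and sequences alone, and 739 stayed unnamed. FPKM were summed per gene, and genes with a mean of 1 FPKM in at least 1 medium were tested as log2(FPKM + 1) with limma 3.58.1 in R 4.3.3 (trend, 7 media, table as covariate; 6 residual and 3.34 prior degrees of freedom; two-sided, Benjamini-Hochberg over 11557 genes, threshold 0.05). The procedure was tested on simulated data. The members, lists, tests and naming rule were chosen with earlier results of these data known. The rule names all members, up to 3 genes of each list with the smallest p in IL27_plus_TGF_beta and in Th1, and the 10 genes most like the members; not all are printed, and 1 gene of the interferon list is not reported here. A pseudogene listed in error among the IRG genes, Gm5424, was removed after its values were seen. Alternatives were no table covariate, pseudocount 0.1, no trend, no filter or one at 5 FPKM, scaling by quantiles or to 1 median, the compared media alone, the highest transcript, each library left out and, added after the data were seen, a summed Tgtp pair.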

Additional observations from a re-analysis of the deposited data

How the results depend on the processing

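Of 780 alternative values for the 6 members, 729 kept their direction and side of the threshold, 33 lost the call, 4 gained one and 14 changed sign. For the summed Tgtp pair, 122 of 130 were kept and 0 changed sign. The calls of Iigp1, Irgm1, Irgm2, Igtp, Tgtp1 and the Tgtp sum in IL27_plus_TGF_beta against Th0 held under all 13 alternatives run for each. Most sign changes were in Tgtp2. With 1 library left out, its change against Th0 ranged from -0.26 to 2.77 (Th1), -0.08 to 1.68 (Th2), -0.19 to 3.02 (iTreg), -0.26 to 2.79 (Th17_b) and -0.13 to 2.34 (Th17_23). It ranged from -0.19 to 3.02 for IL27_plus_TGF_beta against iTreg and from -1.36 to 1.69, with -1.07 among the values, for Th17_b against Th17_23. Tgtp1 ranged from -0.56 to 1.09 (Th17_b) and -0.60 to 0.37 (Th17_23) against Th0 and from -0.44 to 1.21, with -0.10 among the values, between those media. Iigp1 in Th17_23 ranged from -0.06 to 0.18 and was -0.03 with quantile normalization.

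Counts of called members moved as follows. In Th2, 2 and not 4 were lower with no filter, and 2 to 3 with 1 library left out. In iTreg, 2 and not 1 were higher with the compared media alone or the Tgtp pair summed, and 1 to 3 were lower with 1 library left out. In Th17_b, and against Th17_23, 2 were higher with the pair summed. In Th17_23, 1 and not 2 was lower with no filter and 1 to 2 with 1 library left out. In Th17_b against Th17_23, 0 to 1 were higher with 1 library left out. The cause of these moves was not tested.

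The replicate number was kept as a block because the tables were deposited apart. The correlation of replicate differences over 21 pairs of media ranged from -0.127 to 0.357, with a median of 0.141, 15 of 21 over 0.1 and a mean above 0 in all 7 media. Not every pair was over 0.1, and the labels name nothing that a number shares, so whether the numbers pair the libraries is not settled. Without the replicate block, 1 and not 2 members were lower in Th17_23, the calls of Irgm2 in Th2, iTreg and Th17_b against Th17_23 and of Igtp in Th17_23 were lost (adjusted p = 0.32, 0.23, 0.16 and 0.093), and 969 genes were called in Th1 against Th0, in place of 1608. With the compared media alone, 166 genes were called in Th1 and 889 in Th2, in place of 1608 and 2085. With 1 library left out, these were 494 to 912 in Th1 and 1003 or more in Th2; a lone library is then assumed to vary like the other media. Total depth is not known, which limits what can be said of Iigp1 and Tgtp2 values under 1 FPKM.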

Other observations

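Of 15 listed genes induced by type I interferon, 7 were tested, since the others did not reach a mean of 1 FPKM in any medium. In IL27_plus_TGF_beta against Th0, 3 of the 7 were called higher and 3 lower, beside 22% and 28.8% of all tested genes. Ifit1 and Ifit3 reached a mean of 1 FPKM in IL27_plus_TGF_beta alone, so the filter admitted them because they were high there. Ifit1, which binds viral RNA, averaged 1.49 FPKM in IL27_plus_TGF_beta, against 0.213 FPKM in Th0 (1.04 ± 0.10, adjusted p = 3e-05), and Isg15, a ubiquitin-like modifier, averaged 1.52 FPKM, against 0.351 FPKM in Th0 (0.89 ± 0.17, adjusted p = 0.0022). The RNA sensor genes Ddx58 (0.345 FPKM, against 3.90 FPKM in Th0) and Ifih1 (2.22 FPKM, against 4.18 FPKM in Th0) were lower.

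In 9 tested stress and immediate early genes, 4 were called higher and 2 lower in IL27_plus_TGF_beta, beside the same shares. Jun averaged 24.2 FPKM in IL27_plus_TGF_beta and 7.04 FPKM in Th1, against 2.56 FPKM in Th0. Ddit3, a gene of the unfolded protein response, averaged 11.3 FPKM in IL27_plus_TGF_beta, against 34.6 FPKM in Th0 (-1.50 ± 0.19, adjusted p = 0.00016).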
